A study of Homo sapiens with 4 samples.

Results

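The genes described here are 10 components of the NRF2 antioxidant system, chosen by name: every row of the 4 expression tables whose symbol was *NFE2L2*, *KEAP1*, *HMOX1*, *NQO1*, *GCLC*, *GCLM*, *TXNRD1*, *SRXN1*, *GSR* or *TXN*. Each symbol occurred once among the 20457 listed features, and all 10 reached a mean of at least 1 TPM, the minimum for testing (TPM is an abundance normalized for transcript length that sums to 1000000 in each library). The study used RNA sequencing to ask how CNOT4, a RING-type ubiquitin ligase that binds the CCR4-NOT deadenylase complex, contributes to the effect of codon usage on expression. All 4 libraries came from HEK293, a long-established human embryonic kidney cell line. The 2 siControl libraries, labelled wild type, came from cells given a negative control small interfering RNA (siRNA), and the 2 siCNOT4 libraries from cells given siRNA against *CNOT4*. Both groups received 10 nM siRNA for 72 h. The labels do not say whether replicates were separate cultures, so p-values measure only the spread between these libraries.

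NRF2, the product of *NFE2L2*, is a transcription factor that KEAP1 holds in the cytoplasm and delivers to a CUL3 ubiquitin ligase for destruction. Oxidants and electrophiles modify cysteines of KEAP1, NRF2 then escapes degradation, pairs with a small MAF protein and binds antioxidant response elements (AREs) near its target genes. These targets make glutathione, recycle glutathione and thioredoxin, and detoxify quinones and heme.

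The ARE core was looked for in RefSeq promoter windows (build GRCh38.p14), each running from 250 bases before to 50 bases after an annotated start. The core searched was TGACNNNGC on both strands. It was present in 13.35% of all 35116 windows. Of the 10 genes, 8 had windows (11 in all, not for *HMOX1* and *GSR*), and 3 held the core: *GCLM*, *KEAP1* and *TXNRD1*. Counted by window this was 4 of 11 (36.36%), which was not tested against the share of all windows. Matches are descriptions of letters, not binding sites. An ARE outside these windows would be missed, so genes without a match, *NQO1* and *GCLC* among them, may still have one. All 3 genes with a match are shown, with 1 match each, although *KEAP1* had 2 matches and *TXNRD1* 3. The matches were picked with the fold changes known, which were positive for *GCLM* and *TXNRD1* and negative for *KEAP1*. Each stretch shown is 30 bases long, read 5′ to 3′ in the direction of the core, with the core in capitals. The *GCLM* window lies at chr1:93909446-93909475 (+ strand), the *KEAP1* window at chr19:10502784-10502813 (+ strand) and the *TXNRD1* window at chr12:104286919-104286948 (− strand).
GCLM: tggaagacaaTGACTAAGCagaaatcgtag
KEAP1: caggtcaccaTGACTAAGCagagccgggcg
TXNRD1: agagtcagaaTGACAAAGCagaaatccact
Counted along the gene from its annotated start, these matches stood at positions -34, -31 and -102, all on the strand opposite to the gene. The *GCLM* core and the *KEAP1* core shown had the same 9 letters, while the other *KEAP1* match was TGACACGGC. The *GCLM* window shared 19 of 30 letters with the *TXNRD1* window shown, which was picked as the most alike, and 14 and 13 with those of the other *TXNRD1* matches. No stretch of 30 bases shown held the AP-1 motif TGACTCA or TGAGTCA. At least 1 of these occurred in 4.95% of all promoter windows, which are 300 bases long, so the shares cannot be compared.

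The knockdown and the libraries were examined before the genes. *CNOT4* had 6.43 and 4.73 TPM in siControl against 3.38 and 3.81 TPM in siCNOT4, a ratio of means of 0.644. Its log2 fold change was -0.51 (SE 0.26, limma adjusted p 0.184), so the fall in the targeted mRNA was partial and did not pass the test. Whole reads could be recovered from the TPM steps, and over the listed features they summed to between 25693446 and 28978210 per library. These sums are too low where reads and length share a divisor. The siControl libraries differed from each other more (SD of 0.48 on the log2 scale across tested features) than the siCNOT4 libraries did (SD of 0.20), with a median of 0.38 in favour of replicate 1. Fold changes below are siCNOT4 minus siControl on the log2(TPM + 1) scale, which understates changes of low genes. Their median over all 14208 tested features was 0.50, so those of the 10 genes are also given relative to that value, which was -0.042 with TMM scaling (trimmed means of M values) and 0.019 with quantile normalization. *CNOT4* was at -1.01 relative to the median of 0.50, and 4.10% of tested features had a lower fold change. Of the HEK293 markers, *KRT18*, *KRT8* and *NEFL* were between 193 and 384 TPM in every library, *PAX2* between 1.098 and 1.91, and *NEFM* under the minimum for testing (0.412 to 0.916). *VIM* fell from 917 and 650 TPM in siControl to 369 and 354 in siCNOT4 (-1.09, limma adjusted p 0.0288). Of 8 markers of other cell types, *CD68* had 21.9 to 30.7 TPM, *INS* was not listed, and the remaining 6, among them *PTPRC* and *COL1A2*, were at most 0.26 TPM.

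Within the NRF2 system, 2 of 10 genes rose in siCNOT4: *NQO1*, which reduces quinones, and *GCLC*, the catalytic subunit of the enzyme that starts glutathione synthesis. In these bulk libraries, a change in the cells that express a gene and a change in its RNA per cell cannot be told apart. No gene of the 10 fell at the threshold (limma adjusted p under 0.05). The background was 12.6% of all tested features called, 11.3% higher and 1.3% lower, so 2 of 10 is near it. The 2 siCNOT4 libraries lay above both siControl libraries for 8 genes and below both for 1, but this held in 1 direction or the other for 77.1% of all tested features. The median log2 fold change of the 10 genes was 0.51, beside 0.50 for all tested features. The genes spread widely about that middle, from -0.72 for *TXN* to 1.26 for *GCLM*. *NQO1*, *GCLC*, *GCLM* and *TXNRD1* kept a positive fold change in all 15 alternative settings, *KEAP1* and *TXN* a negative one, and *NFE2L2*, *HMOX1*, *SRXN1* and *GSR* changed sign with the scaling. Calls made with 1 library left out are to be read against all features: 79.6% were called without siControl replicate 1, 57.5% without siControl replicate 2, 3.35% without siCNOT4 replicate 1 and 3.17% without siCNOT4 replicate 2.

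**Figure D1:**
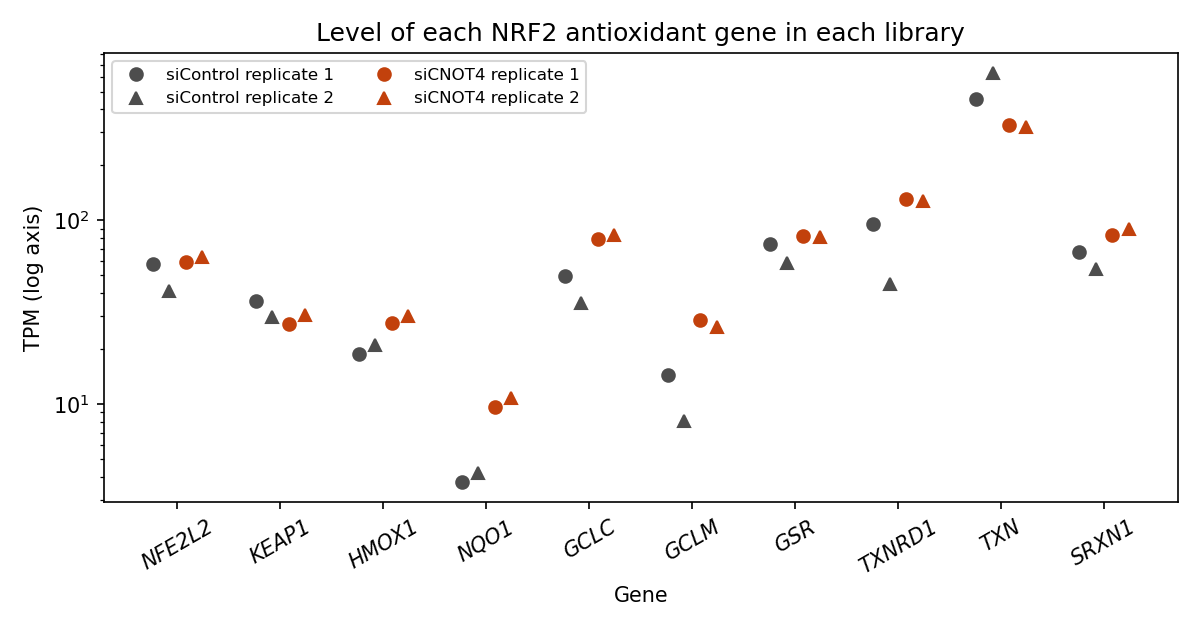
TPM (log axis) of each of the 10 genes, with 1 point per library: grey for siControl, orange for siCNOT4, circles for replicate 1 and triangles for replicate 2. The siCNOT4 points sit above both siControl points for 8 genes, below them for *TXN*, and among them for *KEAP1*.

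The regulator and its repressor were described first. *NFE2L2* had 58.0 and 41.4 TPM in siControl and 59.3 and 63.3 TPM in siCNOT4. The higher siControl library was thus almost level with the lower siCNOT4 library, although the groups did not overlap. The log2 fold change was 0.32 (SE 0.22, limma adjusted p 0.2997), and -0.18 relative to all features. It was -0.28 with TMM scaling and -0.054 with quantile normalization, and 0.56 without siControl replicate 1 (limma adjusted p 0.00147) against 0.078 without siControl replicate 2 (0.465). *KEAP1*, the substrate adaptor that turns NRF2 over, had 36.5 and 29.6 TPM in siControl and 27.2 and 30.3 TPM in siCNOT4, and its groups overlapped. Its log2 fold change was -0.19 (SE 0.23, limma adjusted p 0.529), which is -0.69 relative to all features. *KEAP1* passed the test at -0.77 with TMM scaling (limma adjusted p 0.0428; 9.9% of features called) and at -0.67 with quantile normalization (0.0393; 15.3% called). Its value was -0.045 (0.708) in the fit lacking siControl replicate 1 and -0.33 (0.0353) in the one lacking replicate 2. The ratio of *NFE2L2* to *KEAP1* TPM within a library, which multiplying a library by a constant does not alter, took the values 1.59 and 1.39 in siControl against 2.18 and 2.09 in siCNOT4. That ratio did not overlap between the groups. With 2 libraries against 2, an exact two-sided permutation test of a single value cannot give a p under 0.333, so such ratios are given without one.

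*NQO1*, a classic NRF2 target that reduces quinones by transfer of a pair of electrons, was the least abundant of the 10 genes and had the largest ratio of means. It had 3.78 and 4.198 TPM in siControl and 9.69 and 10.9 TPM in siCNOT4 (3.99 ± 0.294 against 10.3 ± 0.821, mean ± SD, n = 2 each), a ratio of 2.58. Both siCNOT4 libraries were far above both controls, and neither pair of replicates differed by more than 0.15 on the log2 scale. The log2 fold change was 1.18 (SE 0.26, limma adjusted p 0.0439), or 0.67 above that of all features. These values rested on 127 and 160 reads in siControl and 310 and 343 in siCNOT4. Exact Poisson intervals at 95%, which cover counting error only, ran from 3.15 to 4.50 TPM for siControl replicate 1 and from 3.57 to 4.90 for replicate 2. For the siCNOT4 libraries they ran from 8.65 to 10.8 and from 9.74 to 12.1 TPM. The fold change was 0.65 with TMM scaling (limma adjusted p 0.102) and 0.53 with quantile normalization (0.159), neither of which passed the test. In the test on recovered reads with limma's voom, where 14.8% of features were called, it passed at 1.08 (adjusted p 0.0395). Without siCNOT4 replicate 1 or replicate 2 the fold change was 1.25 or 1.101 and was not called (limma adjusted p 0.394 and 0.450). Without siControl replicate 1 or replicate 2 it was 1.12 or 1.24 and was called (0.000408 and 0.00140). The ratio of *NQO1* to *KEAP1* took the values 0.104 and 0.142 in siControl against 0.357 and 0.358 in siCNOT4.

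*HMOX1*, the inducible heme oxygenase, had a fold change close to the median of all features. It had 18.7 and 20.99 TPM in siControl and 27.6 and 30.1 TPM in siCNOT4. The siCNOT4 libraries were the higher ones without overlap. Its log2 fold change, 0.52, did not pass (SE 0.23, limma adjusted p 0.136). It stood 0.019 above the value of all features, and was -0.062 with TMM scaling and 0.025 with quantile normalization. With length and GC trends removed it was 0.34 (limma adjusted p 0.0666), and it was called without siControl replicate 1 (0.44, 0.00740) or replicate 2 (0.60, 0.00456).

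The genes of glutathione synthesis had high ratios in both subunits of 1 enzyme. *GCLC* encodes the catalytic and *GCLM* the modifier subunit of glutamate-cysteine ligase, the rate-limiting enzyme of glutathione synthesis. *GCLC* had 49.98 and 35.2 TPM in siControl and 78.9 and 83.2 TPM in siCNOT4 (42.6 ± 10.4 against 81.1 ± 2.999, mean ± SD, n = 2 each), a ratio of means of 1.90. Its log2 fold change was 0.93 (SE 0.22, limma adjusted p 0.0481), or 0.43 above all features, and both siCNOT4 libraries lay well above both controls. With TMM scaling it was 0.34 (limma adjusted p 0.145), which did not pass, and with quantile normalization 0.56 (0.0457), which did. It missed the threshold in voom (0.66, adjusted p 0.0543) and without siCNOT4 replicate 1 (0.97, 0.322) or replicate 2 (0.90, 0.370), and passed without siControl replicate 1 (1.18, 7.51e-05) or replicate 2 (0.69, 0.00167). *GCLM* had 14.4 and 8.05 TPM in siControl and 28.5 and 26.1 TPM in siCNOT4, a ratio of means of 2.44. Its log2 fold change of 1.26 (SE 0.33), or 0.76 above all features, was larger than that of *GCLC* in value but missed the threshold, with a limma adjusted p of 0.0537. The siControl libraries of *GCLM* differed by 0.76 on the log2 scale, the siCNOT4 libraries by 0.12. *GCLM* passed with quantile normalization (0.70, limma adjusted p 0.0426), in voom (1.06, 0.0428), and without siControl replicate 1 (1.64, 6.38e-05) or replicate 2 (0.88, 0.00165). It did not pass with TMM scaling (0.70, 0.0695), in voom with TMM scaling (0.79, 0.0555), or without siCNOT4 replicate 1 (1.20, 0.419) or replicate 2 (1.32, 0.373). *GCLM* carries the same ARE core as *KEAP1* in the windows printed above, and their log2 fold changes were 1.26 and -0.19. That likeness was set by a choice, since the other *KEAP1* match, which was not printed, had a different core. The matches were picked with these fold changes known, so the contrast is no evidence about the core. The part of the core was not tested. The ratio of *GCLC* to *GCLM* took the values 3.48 and 4.38 in siControl against 2.77 and 3.19 in siCNOT4.

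*GSR*, which reduces oxidized glutathione with NADPH, changed less than the genes of synthesis in value. It had 73.8 and 58.7 TPM in siControl and 81.6 and 80.6 TPM in siCNOT4. The groups did not overlap, but the siControl libraries lay further apart from each other than replicate 1 lay from siCNOT4. The log2 fold change was 0.30 (SE 0.19, limma adjusted p 0.258), which is -0.20 relative to all features, and -0.30 with TMM scaling. Its value was 0.46 (0.00201) in the fit lacking siControl replicate 1 and 0.13 (0.182) in the one lacking replicate 2.

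The thioredoxin genes went in opposite directions in value. TXN is the small dithiol protein that reduces protein disulfides and peroxiredoxins, TXNRD1 is the cytosolic selenoprotein that recharges it from NADPH, and SRXN1 repairs over-oxidized peroxiredoxins. *TXN*, by far the most abundant of the 10, had 455 and 627 TPM in siControl and 328 and 319 TPM in siCNOT4 (541 ± 122 against 324 ± 6.43, mean ± SD, n = 2 each). Every siCNOT4 value was below every siControl value, and the ratio of means was 0.598. The log2 fold change was -0.72 (SE 0.18, limma adjusted p 0.0511), just outside the threshold, and -1.22 relative to all features. Only 1.999% of tested features had a lower one. *TXN* passed with quantile normalization (-0.71, limma adjusted p 0.0377) but not with TMM scaling (-1.32, 0.0637), and it passed without siControl replicate 1 (-0.95, 7.21e-05) or replicate 2 (-0.49, 0.00229) but not without siCNOT4 replicate 1 (-0.74, 0.256) or replicate 2 (-0.70, 0.298).

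*TXNRD1* had 95.2 and 45.2 TPM in siControl and 131 and 127 TPM in siCNOT4. The siControl libraries differed by 1.06 on the log2 scale, more than the 0.97 between the groups. The log2 fold change of 0.97 (SE 0.34), or 0.46 above all features, had a limma adjusted p of 0.0884, and leaving out siControl replicate 2 gave 0.44 (0.00443) where leaving out replicate 1 gave 1.49 (5.46e-05). *SRXN1* had 66.7 and 54.4 TPM in siControl and 83.0 and 89.1 TPM in siCNOT4. Its log2 fold change, 0.51, did not pass (SE 0.19, limma adjusted p 0.0968). It lay 0.0071 above that of all features and was -0.089 with TMM scaling. It was called without siControl replicate 1 (0.65, 0.000670) or replicate 2 (0.36, 0.0131). The ratio of *TXN* to *TXNRD1* was 4.78 and 13.9 in siControl but 2.51 in both siCNOT4 libraries. The substrate thus exceeded its reductase in all 4 libraries, by a margin that differed widely between the controls and hardly between the knockdown libraries.

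**Figure D2:**
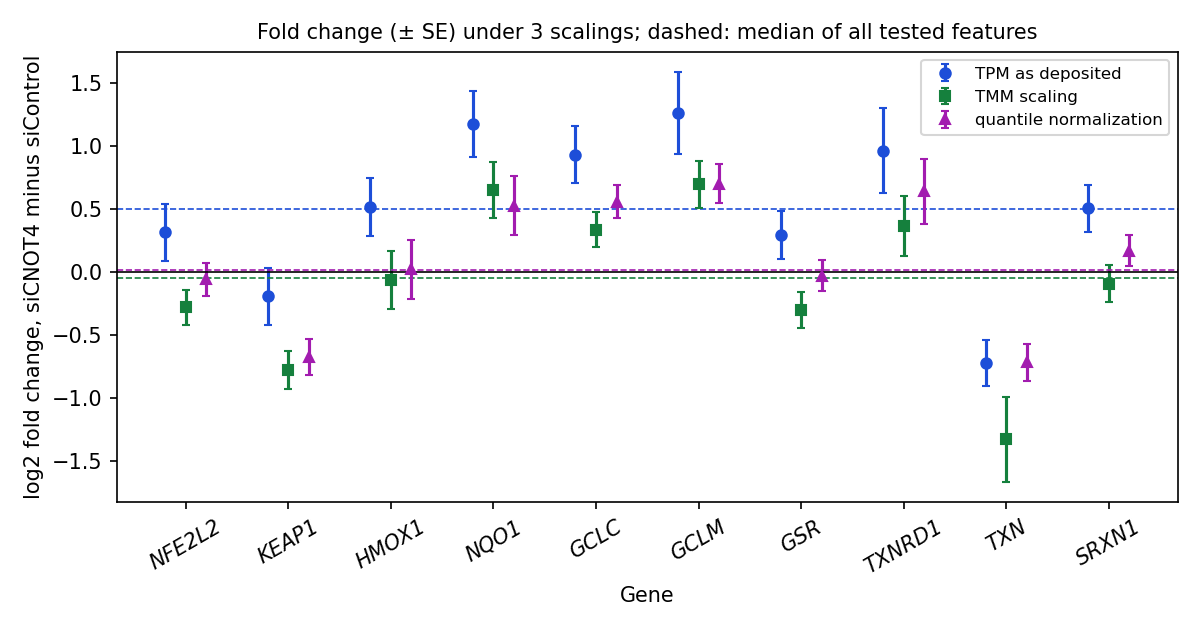
Log2 fold change (siCNOT4 minus siControl, ± SE, 2 libraries per group) of the 10 genes for TPM as deposited, with TMM scaling and with quantile normalization, with a dashed line for the median of all tested features in each. *NQO1*, *GCLC*, *GCLM* and *TXNRD1* stay above 0 and *KEAP1* and *TXN* below 0 in all 3, while *NFE2L2* and *GSR* change sign with both scalings and *HMOX1* and *SRXN1* with TMM alone.

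The order of levels changed between the groups. In siControl the mean TPM ran from *TXN* (541) through *TXNRD1* (70.2), *GSR* (66.2), *SRXN1* (60.5), *NFE2L2* (49.7), *GCLC* (42.6), *KEAP1* (33.1), *HMOX1* (19.8) and *GCLM* (11.2) to *NQO1* (3.99). Neighbours from *TXNRD1* to *KEAP1* overlapped in that order, while *TXN*, *HMOX1*, *GCLM* and *NQO1* each stood clear of their neighbours. In siCNOT4 *TXNRD1* (129) stood clear of *SRXN1* (86.1), *GSR* and *GCLC* (both 81.1) overlapped each other, and *NFE2L2* (61.3) followed. *HMOX1* and *KEAP1* (both 28.8) overlapped with *GCLM* (27.3), which had been below both in siControl. Without *TXN*, the 9 other genes summed to 417 and 298 TPM in siControl and 527 and 541 TPM in siCNOT4. With *TXN*, which made up more of the total in siControl, the sums were 872 and 925 against 855 and 860 TPM.

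Length and codon composition differed among the genes. The siControl libraries and the groups both differed by transcript length: over all tested features in 5 classes of equal size, the median log2 fold change went from 0.18 in the shortest (up to 1599 bases) to 0.77 in the longest (from 5214 bases). The median of siControl replicate 1 minus replicate 2 went from -0.061 to 0.77 over the same classes. *TXN* (868 bases) and *HMOX1* (1590 bases) belonged to the shortest class, *TXNRD1* (4610) and *GCLC* (3812) to the next to longest, and the other 6 to the middle one. After each library's trend on length and transcript GC content was removed, an alternative added after the data were seen, the log2 fold changes were -1.02 for *TXN* (limma adjusted p 0.00985), -0.52 for *KEAP1* (0.0161), 0.46 for *GCLM* (0.0304), 0.31 for *GCLC* (0.0632) and 0.28 for *TXNRD1* (0.199). *NQO1* had 0.65 (0.0489) and kept its call. These calls came from a setting that called 30.1% of the 12250 features it could use. The part of length in these results was not tested further.

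GC3, the percentage of codons with G or C at the last position and a usual measure of codon usage, ran from 38.8% in *NFE2L2* to 84.8% in *SRXN1*. *KEAP1* (82.9%) and *HMOX1* (79.6%) were also GC3-rich, above 93.0% and 87.7% of tested features. *TXNRD1* (43.7%), *GCLM* (45.1%), *TXN* (46.2%) and *GCLC* (48.1%) lay close together in GC3, and their log2 fold changes ran from -0.72 to 1.26. *NQO1* (56.0%) and *GSR* (58.3%) lay near the middle of all features. Genes of similar GC3 also differed in length, such as *TXN* (868 bases) and *TXNRD1* (4610 bases). The part of GC3 in these fold changes was not tested.

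**Figure D3:**
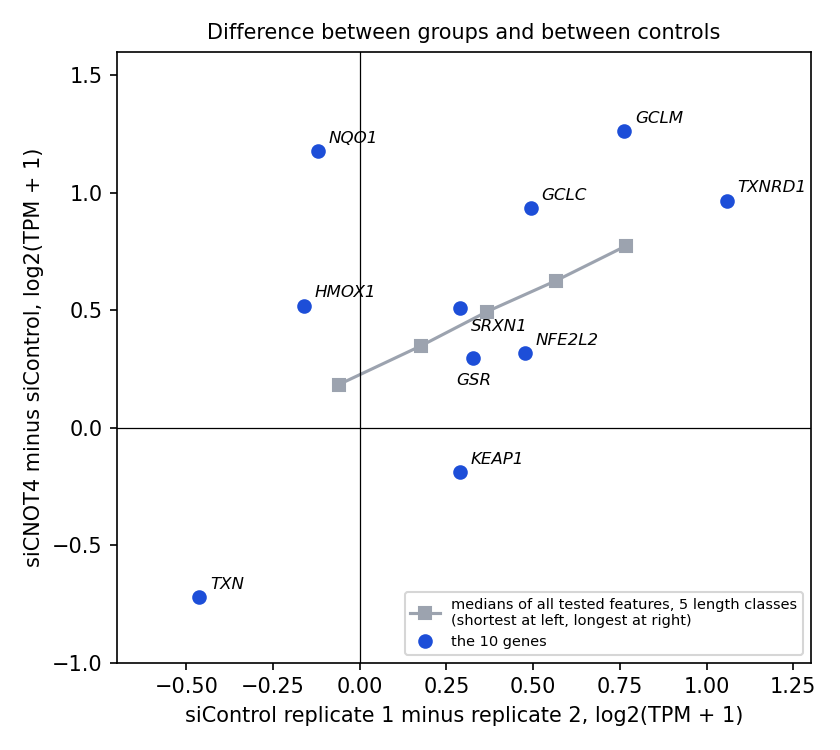
Each blue point is 1 of the 10 genes, placed by the difference between the siControl replicates (x axis, log2(TPM + 1)) and the difference between the groups (y axis, same scale); grey squares are medians of all tested features in 5 classes of transcript length. *NQO1* and *HMOX1* have x values near 0 (-0.12 and -0.16), *TXNRD1* has the widest control difference (1.06), and *TXN* is low on both axes.

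Genes that act on NRF2 were taken from a list of 15 partners, competitors and degradation factors, all tested. Of these, 4 rose and 0 fell, beside 11.3% and 1.3% of all features, and the median log2 fold change was 0.74. At an unadjusted limma p under 0.05 there were 8. The share of all features at that looser threshold was not counted, so this count and those below at an unadjusted p show no excess. *MAFG*, a small MAF partner of NRF2, had 17.4 and 9.54 TPM in siControl and 33.1 and 37.0 in siCNOT4 (log2 fold change 1.37, limma adjusted p 0.0477). *CUL3*, the scaffold of the KEAP1 ubiquitin ligase, had 34.2 and 19.95 TPM against 60.0 and 60.6 (1.17, 0.0490). *BTRC*, the F-box protein of a KEAP1-independent route of NRF2 degradation, had 19.9 and 12.2 TPM against 40.3 and 38.5 (1.28, 0.0445), and *SQSTM1*, the autophagy receptor p62 that binds KEAP1, 96.7 and 83.0 TPM against 162 and 183 (0.94, 0.0315). In each of the 4 genes both siCNOT4 libraries exceeded both controls, but the groups did not overlap for 77.1% of all tested features. With TMM scaling none of the 15 was called by limma (5 at an unadjusted p under 0.05), and with quantile normalization 4 were, all higher. Without siCNOT4 replicate 1 or replicate 2 none was called (3 at an unadjusted p under 0.05 each time), and 13 and 10 were called higher without siControl replicate 1 and replicate 2, settings that called 10071 and 6704 of the 14208 features higher.

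A list of 25 further NRF2 targets held the largest increases of the pathway. Of its 21 tested genes, 6 rose and 0 fell, beside 11.3% and 1.3% of all features, with a median of 0.35 that was below the 0.50 of all features, so the increases sat in a few genes. They were the aldo-keto reductases *AKR1C1*, *AKR1C2* and *AKR1C3*, the iron-binding protein gene *PIR*, the biliverdin reductase *BLVRB* and the oxidative stress-induced *OSGIN1*. *OSGIN1* reached the minimum for testing only through its siCNOT4 libraries. *AKR1C3* had 1.36 and 1.44 TPM in siControl and 10.7 and 11.4 TPM in siCNOT4 (2.32 on the log2 scale, SE 0.24, limma adjusted p 0.0227), and was called in all 15 alternative settings. *AKR1C1* had 4.36 and 4.58 TPM against 19.3 and 18.0 (1.85, 0.0244), and *AKR1C2* 1.13 and 0.965 against 5.30 and 5.27 (1.62, 0.0228). These 3 genes are neighbours of similar sequence, so the division of reads among them is uncertain. *PIR* had 10.1 and 8.67 TPM against 32.2 and 32.4 (1.68, 0.0244), and it stayed called with TMM scaling (1.11, 0.0312) and quantile normalization (1.13, 0.0274).

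*BLVRB* had 96.9 and 128 TPM against 231 and 259 (log2 fold change 1.13, limma adjusted p 0.0272), and *OSGIN1* 0.438 and 0.701 TPM against 2.13 and 3.13 (1.20, 0.0316). Neither passed with TMM scaling. *OSGIN1* averaged 0.569 TPM in siControl, under the minimum of 1 TPM, so the filter favoured a rise. Its call is therefore no support for one. In all 6 genes both siCNOT4 libraries exceeded both controls, beside groups without overlap, in either direction, for 77.1% of all tested features. With TMM scaling 4 of the 21 were called higher and 1 lower, beside 585 and 821 of the 14208 features. *TKT*, with 224 and 198 TPM in siControl and 150 and 153 TPM in siCNOT4, was the lower one (-1.07, limma adjusted p 0.0344). *TKT* was also called lower with quantile normalization (-0.65, 0.0315) but not with TPM as deposited (-0.47, 0.0719). The number called higher ranged from 2 without siCNOT4 replicate 2, where 413 of all features were, to 15 without siControl replicate 1, where 10071 were. The remaining 15 tested targets did not pass. They included the ferritin genes *FTL* (0.22) and *FTH1* (0.079), the cystine transporter *SLC7A11* (0.11) and the pentose phosphate enzyme *PGD* (0.0041), named after their values were seen. The ARE core was present in the promoter windows of 6 of the 17 list members that matched RefSeq. Counted by window this was 6 of 20 (30%), beside 13.35% of all windows, a difference that was not tested.

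Other glutathione genes did not move as a block. Of 25 tested genes of glutathione synthesis and use, 2 rose and 2 fell, beside 11.3% and 1.3% of all features, and the median of 0.090 was below that of all features. *GPX3*, the secreted glutathione peroxidase, had 52.6 and 52.3 TPM in siControl and 114 and 126 TPM in siCNOT4 (log2 fold change 1.18, limma adjusted p 0.0243), and *GSTZ1*, a glutathione transferase of tyrosine breakdown, 58.2 and 73.1 against 111 and 112 (0.77, 0.0479). *CHAC1*, which degrades glutathione and is a known ATF4 target, fell from 47.5 and 41.7 TPM to 13.8 and 15.7 (-1.53, 0.0250). *GPX1*, the main cytosolic glutathione peroxidase, fell from 144 and 193 TPM to 95.2 and 98.4 (-0.78, 0.0489). *GSTM2*, a glutathione transferase, had a fold change of 0.90 that did not pass (limma adjusted p 0.0670), and *GSS*, which completes glutathione synthesis, had -0.27 (0.226). With TMM scaling the median was -0.50 and *GPX3* (0.58, 0.103), *GSTZ1* (0.17, 0.676) and *GPX1* (-1.38, 0.0511) missed the threshold. Without siCNOT4 replicate 1 or replicate 2 limma called 0 of the 25 (3 at an unadjusted p under 0.05 each time).

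Among 21 thioredoxin, peroxiredoxin, superoxide dismutase and catalase genes, 1 rose and 0 fell, beside 11.3% and 1.3% of all features. It was *TXNIP*, the thioredoxin-binding protein, with 231 and 164 TPM in siControl and 368 and 350 TPM in siCNOT4 (log2 fold change 0.88, limma adjusted p 0.0436). *TXNIP* and *TXN* thus differed in direction by value. *SESN3* (1.20, limma adjusted p 0.0927) and *CAT* (0.64, 0.165) had the other large values and did not pass, with siControl libraries 19.9 and 7.66 TPM for *SESN3*. The median of the list was 0.22, and 17 of the 21 lay below the median of all features. *TXNIP* was not called with TMM scaling (0.28, limma adjusted p 0.278), where the median of the list was -0.39.

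**Figure D4:**
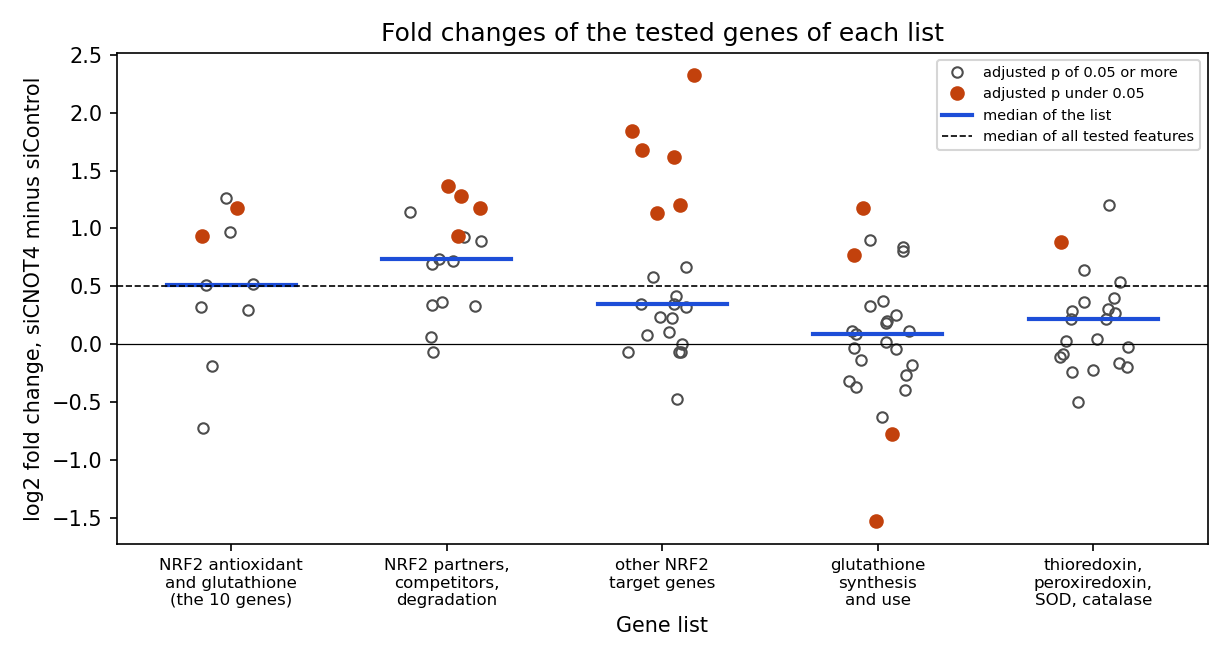
Log2 fold change (siCNOT4 minus siControl) of each tested gene in the 5 lists, with filled points for a limma adjusted p under 0.05, a blue bar for the median of the list and a dashed line for that of all tested features (0.50). The list of other NRF2 targets has 6 called genes well above a median of 0.35, and the glutathione list has called genes on both sides of 0.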

How the data were processed

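Tables of TPM, 1 for each of 4 libraries, were deposited by the authors, scaled to 1000000 per library; the submitters' processing notes name FastQC 0.11.2, STAR 2.5.3a, featureCounts and hg19, and the annotation and strand setting are not given in the sources used here. Values were compared as log2(TPM + 1) for the 14208 features that reached a mean of 1 TPM, using limma 3.58.1 (R 4.3.3; lmFit, eBayes with a trend, no covariates) and Benjamini-Hochberg adjustment over all of them. Since TPM is reads divided by length, microRNA and small nucleolar RNA lengths gave the value of 1 read per library, and 1 length per feature then made all 4 libraries whole (within 0.01 reads) for 99.95% of features above 0. A divisor shared by reads and length is lost in this step. Lengths in the text are these recovered ones; GC3 came from the longest complete coding sequence in GENCODE 29 (GRCh38). TMM was unweighted. Named genes were all 10, the called members of each related list, and its 3 largest changes. *GSS*, *FTL*, *FTH1*, *SLC7A11*, *PGD*, *TKT* and the marker genes were named outside that rule, all but the marker genes after their values were seen. Members and lists were chosen with earlier results of these data known. The fit and the read recovery were tested on simulated data.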

Additional observations from a re-analysis of the deposited data

How the results depend on the processing

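Of 15 alternative settings, voom on recovered reads kept the number of called genes among the 10 at 2, but these were *NQO1* and *GCLM*. The number was 0 with a pseudocount of 0.1, no filter, a mean TPM of at least 5 or centring on each library's median. It was 1 with TMM scaling and voom with TMM scaling (*KEAP1*, lower) and 1 in eBayes without a trend (*NQO1*, higher). Quantile normalization gave 4, *GCLC* and *GCLM* higher and *KEAP1* and *TXN* lower. Removal of length and GC trends also gave 4, *NQO1* and *GCLM* higher and *KEAP1* and *TXN* lower. The replicate block gave 5, with *TXN* lower and the rest higher. Leaving out 1 library gave 0 to 9 calls: 9 without siControl replicate 1, 8 without siControl replicate 2 and 0 without either siCNOT4 library, where the lone library is assumed to vary like the other group. Over all features, these 4 settings called 79.6%, 57.5%, 3.35% and 3.17%, a pseudocount of 0.1 called 3.93%, no filter 4.6%, a mean TPM of at least 5 called 1.29%, centring 3.82%, TMM scaling 9.9%, voom with TMM scaling 11.9%, no trend 5.32%, quantile normalization 15.3% and trend removal 30.1%. The median of the 10 genes, 0.51 in the text, was -0.076 with TMM scaling, 0.099 with quantile normalization, -0.049 with centring, 0.18 with trend removal, 0.24 in voom and -0.020 in voom with TMM scaling. Signs reversed for *NFE2L2* (-0.28 with TMM scaling, -0.054 with quantile normalization, -0.25 with centring, -0.25 with trend removal, -0.23 in voom with TMM scaling) and *GSR* (-0.30, -0.026, -0.27, -0.22 and -0.25 in the same order). They reversed with TMM scaling, centring and voom with TMM scaling for *HMOX1* (-0.062, -0.043 and -0.0046) and *SRXN1* (-0.089, -0.054 and -0.035). The other NRF2 targets called higher, 6 in the text, were 3 at a mean TPM of at least 5, 2 with centring, and 2 to 15 with 1 library left out (15 without siControl replicate 1, 11 without siControl replicate 2, 2 without siCNOT4 replicate 2). At a mean TPM of at least 5 only 19 of these targets were tested, because *AKR1C2* and *OSGIN1* fell under that minimum. The cause of the other differences was not tested. The voom, trend-removal and target-list alternatives were chosen after seeing the data.

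The replicate numbers are shared between groups, but nothing in the labels ties replicate 1 of one group to replicate 1 of the other; the replicate differences of the groups had a Pearson r of 0.17 across 14208 features. With the replicate block 25.7% of all features and 5 of the 10 genes were called.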
